A study of Mus musculus with 13 samples.

Results

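The genes described here are 9 miRNA hairpins that sit in 3 paralogous clusters of the mouse genome, each made of a miR-99/100 gene, a let-7 gene and a miR-125 gene. They are mmu-mir-99a, mmu-let-7c-1 and mmu-mir-125b-2 (the 99a locus), mmu-mir-99b, mmu-let-7e and mmu-mir-125a (the 99b locus), and mmu-mir-100, mmu-let-7a-2 and mmu-mir-125b-1 (the 100 locus), written below without the prefix for mouse. They were taken by name, 9 of the 1127 hairpins counted, together with the 11 of 1297 mature sequences named miR-99a, miR-99b, miR-100, miR-125a, miR-125b or let-7e. Of the mature sequences, 6 come from the 99b locus, 2 from the 99a locus and 2 from the 100 locus, and miR-125b-5p can come from either of the latter loci.

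The libraries are small RNA-seq of thymic iNKT cells, lipid-recognizing T cells that carry an invariant TCR, from 6 WT and 7 *Tet2/3* DKO mice aged 21 to 25 days, with 1 library per mouse. The WT mice were C57BL/6. The *Tet2/3* DKO mice carried the genotype Tet2-/-Tet3flx/flx CD4 cre, so that *Tet2* was missing from every cell of the animal, also from cells other than T cells, whereas *Tet3* was removed in T cells through the CD4 promoter that drives the cre. Cells depleted of CD24+ thymocytes were sorted by FACS as live TCRβ+ cells that bound a tetramer loaded with a lipid (α-galactosylceramide). TET2 and TET3 are enzymes that oxidize methylated cytosine in DNA, and the question of the comparison is which small RNAs differ when both are lost.

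MiRNA genes are transcribed into long primary transcripts, from which DROSHA cuts the hairpin and DICER1 then cuts the mature strands, called 5p and 3p after the arm they come from. A mature miRNA lowers the expression of mRNAs that pair with its seed, bases 2 to 8 from its 5′ end. The let-7 miRNAs are known as repressors of growth and of stem cell genes, and in iNKT cells let-7 lowers PLZF, the transcription factor that sets their effector program. The miR-99/100 family is known to target *Mtor*, and miR-125a and miR-125b are known from haematopoietic stem cells and T cells.

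The mature sequences show how alike the loci are. Sequences are those of RefSeq (GRCm38.p6), which had an entry for 11 of the 11 mature names and 7 of the 9 hairpins, written 5′ to 3′ with the seed in capitals. The miR-99/100 products share the seed ACCCGUA.
miR-99a-5p: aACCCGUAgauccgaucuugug
miR-99b-5p: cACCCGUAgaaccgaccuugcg
miR-100-5p: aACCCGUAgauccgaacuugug
Counted from the 5′ end, miR-100-5p differs from miR-99a-5p by U16A alone, and miR-99b-5p differs from miR-99a-5p by A1C, U11A, U16C and U21C. The miR-125 products share the seed CCCUGAG, and 21 bases of miR-125a-5p (24 bases long) and miR-125b-5p (22 bases long) are identical when aligned.
miR-125a-5p: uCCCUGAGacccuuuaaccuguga
miR-125b-5p: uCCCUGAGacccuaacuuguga
The let-7 products share the seed GAGGUAG. The product of the 99b locus, let-7e-5p, differs from let-7a-5p by U9G and from let-7c-5p by U9G and G19A.
let-7e-5p: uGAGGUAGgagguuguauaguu
let-7c-5p: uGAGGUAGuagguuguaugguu
let-7a-5p: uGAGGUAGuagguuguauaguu
The rare 3p strands of the 99b locus are read only from that locus, and they are shown because they give a second count of the same hairpins.
miR-99b-3p: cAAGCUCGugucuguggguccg
let-7e-3p: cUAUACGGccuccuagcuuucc
miR-125a-3p: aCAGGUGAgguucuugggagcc

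The let-7c and let-7a products are not specific to 1 locus. The hairpin let-7c-1 has the same mature 5p sequence as let-7c-2, and let-7a-2 has the same as let-7a-1. It is in capitals below.
let-7c-1: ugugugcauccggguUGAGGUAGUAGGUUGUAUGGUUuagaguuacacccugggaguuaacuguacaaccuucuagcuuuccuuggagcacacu
let-7c-2: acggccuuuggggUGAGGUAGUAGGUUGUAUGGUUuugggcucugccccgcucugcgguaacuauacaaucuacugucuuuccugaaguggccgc
let-7a-2: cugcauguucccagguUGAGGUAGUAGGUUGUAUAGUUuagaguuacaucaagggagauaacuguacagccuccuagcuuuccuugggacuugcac
let-7a-1: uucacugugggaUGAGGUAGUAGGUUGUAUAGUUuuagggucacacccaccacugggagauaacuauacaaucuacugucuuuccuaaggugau
In every library the count of the hairpin let-7a-1 was between 95.6% and 97.2% of that of let-7a-2, and the count of let-7c-1 was between 85.9% and 107% of that of let-7c-2. The hairpins mir-125b-1 and mir-125b-2 had equal counts in 9 of 13 libraries. Counting could therefore have exchanged reads within each of these pairs, and the hairpin values of let-7c-1, let-7a-2, mir-125b-1 and mir-125b-2 are uncertain as values of 1 gene. The let-7e, mir-99b, mir-125a, mir-99a and mir-100 hairpins have no partner with the same mature 5p sequence. However, let-7e-5p differs from let-7a-5p by 1 base, as does miR-99a-5p from miR-100-5p, and an exchange of reads between these was not tested.

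The loci differ in spacing and in host gene (GRCm38 coordinates, GENCODE M21 annotation, all hairpins on the + strand). The 99b locus is compact. It covers 692 bp, with mir-99b at chr17:17830188-17830257, let-7e at chr17:17830352-17830444 and mir-125a at chr17:17830812-17830879. The first 2 hairpins lie in an intron of the protein-coding gene *Spaca6*, mir-125a lies in an exon of 1 of 3 *Spaca6* transcripts that overlap it, and let-7e overlaps Gm25927, a miRNA gene annotated on the - strand. The 99a locus covers 47.4 kb of introns of the noncoding gene *Mir99ahg*, with mir-99a at chr16:77598936-77599000, let-7c-1 at chr16:77599657-77599750 and mir-125b-2 at chr16:77646273-77646343. The former pair also lies in an intron of Gm11146 on the - strand, and mir-125b-2 in an exon of C130023A14Rik on the + strand. The 100 locus covers 50.6 kb of introns of the noncoding genes 3110039I08Rik and Gm49317, with mir-100 at chr9:41531425-41531504, let-7a-2 at chr9:41536716-41536811 and mir-125b-1 at chr9:41581926-41582002. There mir-100 overlaps an exon of Gm48742 on the - strand, and mir-125b-1 an exon of the sense-intronic gene Gm28119.

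The authors deposited raw counts on hairpins and on mature sequences. Hairpin counts are small RNA reads assigned to hairpin sequences. Whether reads counted on mature sequences were also counted on hairpins is not given in the sources used here. Hairpin levels below are therefore not read as amounts of uncut hairpin. Total counts per library were 469117 to 1110226 on hairpins and 1110852 to 2582057 on mature sequences in WT, and 728653 to 1910526 and 1837631 to 4361963 in *Tet2/3* DKO, so the WT libraries were the shallower ones. Levels below are CPM, counts in each 1000000 of the TMM-scaled library, and differences are log2 fold changes of *Tet2/3* DKO against WT from edgeR's quasi-likelihood test, called at a Benjamini-Hochberg adjusted p under 0.05 over all 350 hairpins or 401 mature sequences that passed the filter on low counts. The 3 counts that a count of 0 allows corresponded to 1.42 to 6.91 CPM on hairpins and 0.633 to 2.82 CPM on mature sequences, which covers counting error only. MiRNAs of the T lineage and of blood cells (mir-142, mir-150, mir-181a-1 and mir-181b-1, of which 3 of 4 were analysed on hairpins) had summed mature levels of 157639 to 218959 CPM in WT and 141537 to 216670 CPM in *Tet2/3* DKO. Of their 6 tested strands 2 were higher and 2 lower, and of their 3 tested hairpins 2 were higher and 1 lower. Among all tested sequences, 55.6% of mature sequences and 59.7% of hairpins were called. Marker miRNAs of other cell types differed between the genotypes, WT 5 and WT 6 stood apart in miR-122, and WT 1 had the fewest counts of all libraries. These values are given beside the results they touch.

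The tested hairpins of the 99b locus and of the 99a locus differed in the direction of their change. All 3 hairpins of the 99b locus rose in *Tet2/3* DKO iNKT cells, and the 2 measured hairpins of the 99a locus that passed the filter fell, whereas let-7a-2, the one hairpin of the 100 locus that passed it, was not called under the TMM scaling used here. Of the 9 member hairpins, 6 passed the filter, and 3 of these were higher and 2 lower, where 59.7% of all tested hairpins were called, 32.6% higher and 27.1% lower. The median log2 fold change was 0.55 over the 6 tested members and 0.02 over all tested hairpins. Of the 11 mature members, 9 passed the filter, and 6 were higher and 3 lower, where 55.6% of all tested mature sequences were called, 28.2% higher and 27.4% lower. More of all tested sequences were called than not, and the members' counts are to be read against these shares.

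**Figure D1:**
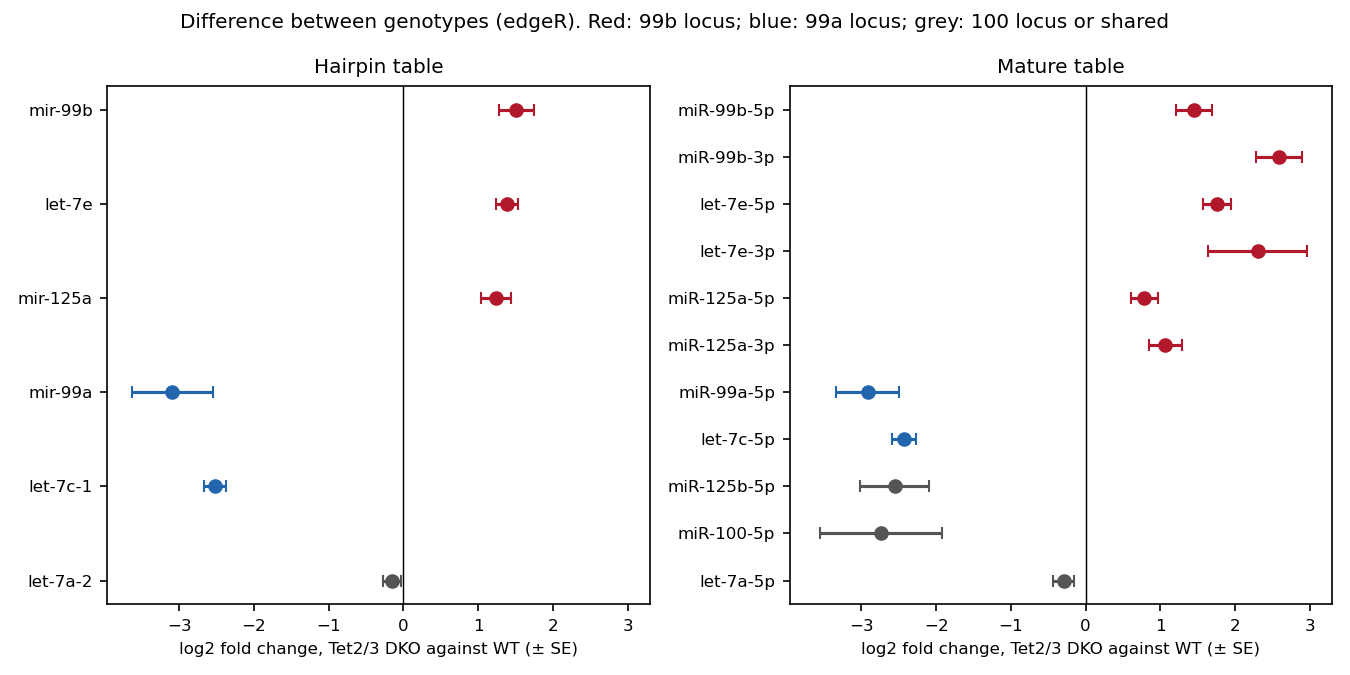
Log2 fold change of *Tet2/3* DKO against WT (x axis, points with standard errors) for the member hairpins that passed the filter (left) and for the mature sequences of the same hairpins (right). All 9 points of the 99b locus (red) lie above 0, between 0.78 and 2.59, and the points of mir-99a, let-7c-1, miR-99a-5p, let-7c-5p, miR-125b-5p and miR-100-5p lie below 0, between -3.09 and -2.43.

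In the 99b locus, the let-7e hairpin rose without overlap between the genotypes. Its level ranged from 2227 to 4041 CPM in WT (median 2840 CPM) and from 5391 to 8909 CPM in *Tet2/3* DKO (median 7856 CPM). Every *Tet2/3* DKO library was above every WT library, and let-7e was higher by 1.38 on the log2 scale (SE 0.146, adjusted p = 2.4e-07, edgeR).

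The mir-99b hairpin ranged from 329 to 1014 CPM in WT (median 480 CPM) and from 1114 to 1922 CPM in *Tet2/3* DKO (median 1543 CPM). The groups did not overlap, and the highest WT value was that of WT 1. On the log2 scale mir-99b was higher by 1.51 (SE 0.234, adjusted p = 7.63e-05, edgeR). The mir-125a hairpin ranged from 84.7 to 230.4 CPM in WT (median 136 CPM) and from 258 to 448 CPM in *Tet2/3* DKO (median 338 CPM), again without overlap. Its log2 fold change was 1.24 (SE 0.199, adjusted p = 4.78e-05, edgeR). All 3 hairpins of the locus were thus without overlap, as were 18.0% of all tested hairpins in that direction and 32.0% in either direction. None of them passed 2 on the log2 scale, as 1.71% of all tested hairpins did in that direction.

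The mature strands of the 99b locus rose as well, by amounts that differed between strands. For let-7e-5p, the let-7 strand of the locus, the WT level ranged from 1409 to 3289 CPM (median 2057 CPM) and the *Tet2/3* DKO level from 4936 to 8991 CPM (median 6486 CPM). The groups did not overlap, and the log2 fold change of let-7e-5p was 1.75 (SE 0.188, adjusted p = 6.28e-07, edgeR). For miR-99b-5p, the WT level ranged from 1268 to 3682 CPM (median 1695 CPM) and the *Tet2/3* DKO level from 3445 to 6793 CPM (median 5112 CPM). Here 6 of 7 *Tet2/3* DKO libraries were above all WT libraries, since *Tet2/3* DKO 2, the lowest, lay below WT 1. On the log2 scale miR-99b-5p was higher by 1.45 (SE 0.241, adjusted p = 0.00013, edgeR). For miR-125a-5p, the most abundant of the 11 mature members in WT, the level ranged from 2996 to 7229 CPM in WT (median 4605 CPM) and from 5266 to 9838 CPM in *Tet2/3* DKO (median 8263 CPM), with 5 of 7 *Tet2/3* DKO libraries above all WT libraries. Its log2 fold change, 0.78 (SE 0.180, adjusted p = 0.00133, edgeR), was the smallest among the 6 mature members of the locus.

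The 3p strands of the 99b locus were far rarer. For miR-99b-3p, the level was 18.1 ± 10.3 CPM (SD, n = 6) across WT mice and 109 ± 19.8 CPM (SD, n = 7) across *Tet2/3* DKO mice, with WT counts between 9 and 62 and no overlap. Among all tested mature sequences, 12.7% lay above WT without overlap, as miR-99b-3p and let-7e-5p did. Its log2 fold change was 2.59 (SE 0.311, adjusted p = 1.25e-06, edgeR), past 2 on the log2 scale, as were 3.99% of all tested mature sequences in that direction. For miR-125a-3p, the level ranged from 86.4 to 218 CPM in WT (median 92.7 CPM) and from 155 to 317 CPM in *Tet2/3* DKO (median 252 CPM), with 4 of 7 *Tet2/3* DKO libraries above all WT libraries, and its log2 fold change was 1.06 (SE 0.224, adjusted p = 0.000488, edgeR).
For let-7e-3p, the 6 WT libraries held 12, 0, 1, 4, 0 and 2 counts and the 7 *Tet2/3* DKO libraries held 37, 43, 41, 43, 57, 29 and 15 counts. The 12 counts were those of WT 1 and corresponded to 11.3 CPM, inside the *Tet2/3* DKO range of 6.73 to 14.6 CPM. The log2 fold change of let-7e-3p was 2.30 (SE 0.662, adjusted p = 0.00616, edgeR) and 3.65 without WT 1.

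**Figure D2:**
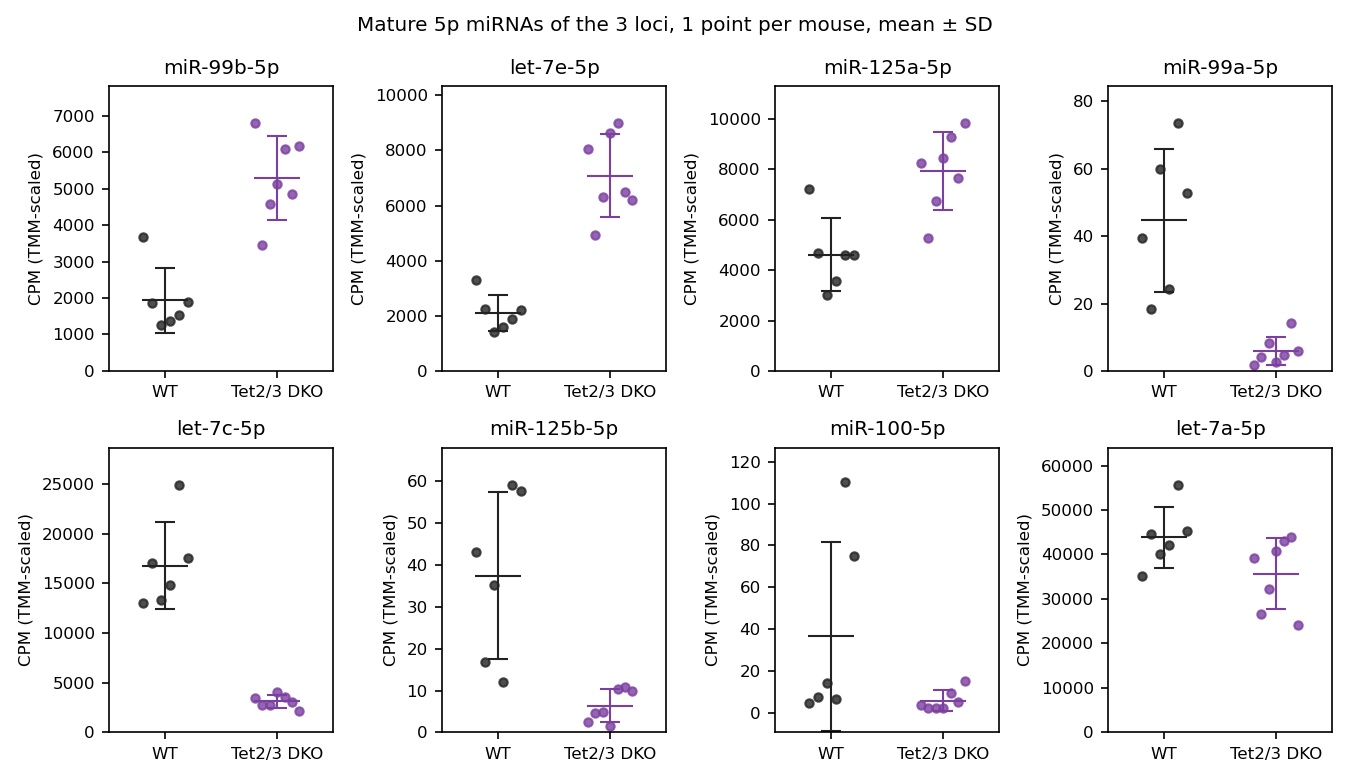
Level in CPM (y axis, linear, TMM-scaled) of the 8 mature 5p sequences of the 3 loci in each mouse (points), with the mean and SD of each genotype. The *Tet2/3* DKO points of let-7e-5p lie above all WT points, those of miR-99a-5p, let-7c-5p and miR-125b-5p lie below all WT points, and the genotypes overlap for miR-99b-5p, miR-125a-5p, miR-100-5p and let-7a-5p.

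The members of the 99b locus did not rise by the same amount. Ratios of 2 counts of the same library do not depend on library scaling, and they are given as log2 ratios with 0.5 counts added to each count. Of 34 pairs listed within and between the loci and between the arms of a hairpin, 20 had both members past the filter and were tested by a two-sided exact permutation test over all 1716 assignments of the genotypes to libraries, whose smallest p is 0.00117, with adjustment over the 20 pairs. The log2 ratio of let-7e-5p to miR-125a-5p was -1.13 ± 0.0801 (SD, n = 6) across WT mice and -0.16 ± 0.238 (SD, n = 7) across *Tet2/3* DKO mice, a difference of 0.97 (adjusted p = 0.00259, exact permutation test) without overlap. Relative to miR-125a-5p, the log2 ratio of miR-99b-5p was -1.30 ± 0.199 (SD, n = 6) across WT mice and -0.59 ± 0.145 (SD, n = 7) across *Tet2/3* DKO mice, a difference of 0.71 (adjusted p = 0.00259, exact permutation test), also without overlap. Between miR-99b-5p and let-7e-5p the difference was -0.26 (adjusted p = 0.0766, exact permutation test), which was not called. Without *Tet2/3* DKO 7 that pair was called, at -0.33 (adjusted p = 0.0108, exact permutation test).

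Read as shares of the 3 5p strands, miR-125a-5p gave 53.6% ± 2.13 (SD, n = 6) of the 99b locus in WT and 39.0% ± 2.68 (SD, n = 7) across *Tet2/3* DKO mice. For let-7e-5p the share was 24.5% ± 0.922 (SD, n = 6) across WT mice and 34.96% ± 3.47 (SD, n = 7) across *Tet2/3* DKO mice. The share of miR-99b-5p was 21.9% ± 2.27 (SD, n = 6) across WT mice and 26.0% ± 2.05 (SD, n = 7) across *Tet2/3* DKO mice. Among these mature strands, miR-125a-5p was thus the main one in WT, and in *Tet2/3* DKO miR-125a-5p and let-7e-5p had nearly equal shares. The order was different on hairpins, where let-7e had the highest and mir-125a the lowest median level in both genotypes. Medians of let-7e, mir-99b and mir-125a were 2840, 480 and 136 CPM in WT and 7856, 1543 and 338 CPM in *Tet2/3* DKO. Why the order differed was not tested. The differences of the log2 ratios between the genotypes were smaller on hairpins than on mature strands. Between mir-99b and mir-125a the log2 ratio differed by 0.30 (adjusted p = 0.00848, exact permutation test), with overlap. Neither let-7e to mir-125a, with a difference of 0.13 (adjusted p = 0.34, exact permutation test), nor mir-99b to let-7e, with a difference of 0.17 (adjusted p = 0.281, exact permutation test), was called. Whether the shift between members differed between the mature and the hairpin table was not tested.

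The balance of arms was compared for the same 3 hairpins. For miR-99b the log2 ratio of the 3p to the 5p strand was -6.86 ± 1.17 (SD, n = 6) across WT mice and -5.59 ± 0.153 (SD, n = 7) across *Tet2/3* DKO mice, a difference of 1.27 (adjusted p = 0.00971, exact permutation test) with overlap. Without WT 5 and WT 6 the adjusted p of that ratio was 0.0505 with a difference of 1.44 (exact permutation test). The differences for miR-125a, 0.29 (adjusted p = 0.0592, exact permutation test), and for let-7e, 1.33 (adjusted p = 0.127, exact permutation test), were not called. Without WT 1 they were called, at 0.35 (adjusted p = 0.0253, exact permutation test) and 1.86 (adjusted p = 0.0194, exact permutation test). The miR-125a ratio was also called without WT 3, at 0.34, and without *Tet2/3* DKO 7, at 0.33.

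**Figure D3:**
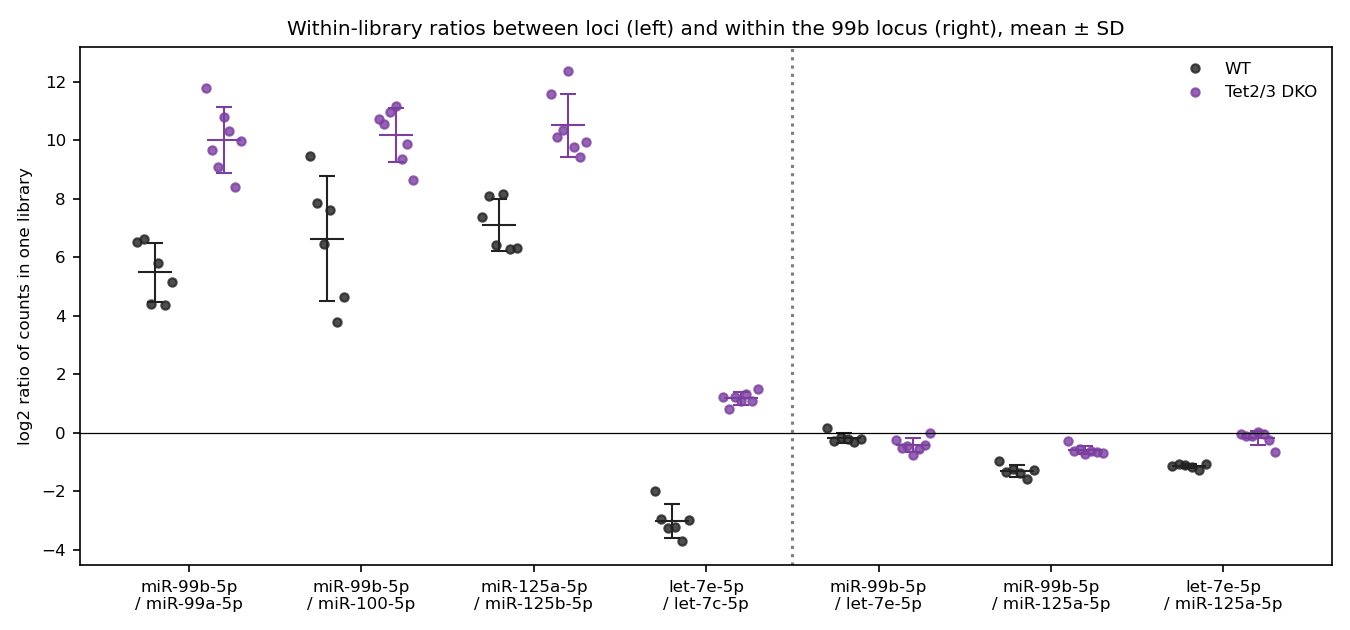
Log2 ratio of 2 mature counts of the same library (y axis) in each WT and *Tet2/3* DKO mouse (points), with the mean and SD of each genotype, for 4 pairs between loci (left of the dotted line) and 3 pairs within the 99b locus (right). Between loci the mean log2 ratio was higher in *Tet2/3* DKO by 3.41 to 4.53, and within the 99b locus the 3 differences were -0.26, 0.71 and 0.97.

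In the 99a locus, the let-7c-1 hairpin was lower in every *Tet2/3* DKO library than in any WT library. Its level ranged from 9606 to 17087 CPM in WT (median 10657 CPM) and from 1670 to 2613 CPM in *Tet2/3* DKO (median 1887 CPM). The groups lay far apart, and the log2 fold change of let-7c-1 was -2.52 (SE 0.150, adjusted p = 1.89e-10, edgeR). Its mature strand let-7c-5p, which let-7c-2 also gives, was at 16788 ± 4411 CPM (SD, n = 6) across WT mice and 3122 ± 623 CPM (SD, n = 7) across *Tet2/3* DKO mice, with a log2 fold change of -2.43 (adjusted p = 2.54e-10, edgeR). The let-7c-2 hairpin, outside the locus, had a log2 fold change of -2.63 (adjusted p = 2.06e-10, edgeR), so that the data do not tell which let-7c gene the fall belongs to. The let-7b hairpin, also outside the locus, fell by 2.68 on the log2 scale (adjusted p = 2.74e-11, edgeR). Its strand let-7b-5p, which differs from let-7c-5p by A17G alone, fell by 2.55 (adjusted p = 9.9e-12, edgeR). Of 10 tested let-7 and mir-98 hairpins outside the 3 loci, 1 was higher, 5 lower and 4 not called. Of all tested hairpins 59.7% were called, 32.6% higher and 27.1% lower.

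The mir-99a hairpin was rare. It had 5, 17, 83, 28, 23 and 19 counts in the 6 WT libraries and 1, 2, 8, 11, 4, 10 and 9 counts in the 7 *Tet2/3* DKO libraries, that is 11.5 to 84.7 CPM in WT (median 28.5 CPM) and 0.561 to 10.6 CPM in *Tet2/3* DKO (median 4.95 CPM). The groups did not overlap, although the highest *Tet2/3* DKO library and the lowest WT library were close, and WT 3 was the highest. The log2 fold change of mir-99a was -3.09 (SE 0.538, adjusted p = 0.000102, edgeR) and -2.56 without WT 3. Both let-7c-1 and mir-99a were below all WT libraries in every *Tet2/3* DKO library, as were 14.0% of all tested hairpins. They also passed the threshold of 2 on the log2 scale, as did 6.57% of all tested hairpins in that direction.

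Its mature strand miR-99a-5p ranged from 18.4 to 73.5 CPM in WT (median 46.1 CPM) and from 1.79 to 14.3 CPM in *Tet2/3* DKO (median 4.6 CPM), without overlap. The log2 fold change of miR-99a-5p was -2.92 (SE 0.425, adjusted p = 1.52e-05, edgeR). The strand miR-125b-5p, which the 99a and the 100 locus both encode, ranged from 12.1 to 59.2 CPM in WT (median 39.2 CPM) and from 1.48 to 10.9 CPM in *Tet2/3* DKO (median 4.98 CPM). These groups came close, at 10.9 and 12.1 CPM, and did not overlap, and the log2 fold change of miR-125b-5p was -2.55 (SE 0.464, adjusted p = 0.000151, edgeR). Among all tested mature sequences, 14.5% lay below WT without overlap and 27.2% were without overlap in either direction, and 7.23% fell past 2 on the log2 scale.

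The falls of miR-99a and let-7c were not told apart in size. Since let-7c-2 also gives let-7c-5p and could exchange reads with let-7c-1, these ratios are not of the 99a locus alone. The log2 ratio of miR-99a-5p to let-7c-5p was -8.66 ± 0.734 (SD, n = 6) across WT mice and -9.25 ± 1.14 (SD, n = 7) across *Tet2/3* DKO mice, a difference of -0.59 (adjusted p = 0.328, exact permutation test). On hairpins, the log2 ratio of mir-99a to let-7c-1 differed by -0.61 (adjusted p = 0.39, exact permutation test). The spread of these ratios between mice of one genotype was larger than the difference. Neither ratio was called, which does not show that the falls were equal.

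The mir-125b-2 hairpin was hardly detected. It had 4, 0, 6, 0, 0 and 5 counts in WT and 0, 0, 1, 0, 2, 1 and 6 counts in *Tet2/3* DKO, and was not tested. The strand miR-125b-2-3p had 1 count in all, in a WT library, and was not tested either. The strands miR-99a-3p, let-7c-1-3p, let-7a-2-3p and miR-125b-1-3p were not analysed here.

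In the 100 locus, only let-7a-2 was read at depth, and it shares its mature strand with let-7a-1. Its hairpin level ranged from 14018 to 20865 CPM in WT (median 16741 CPM) and from 11507 to 18222 CPM in *Tet2/3* DKO (median 15839 CPM), with 2 of 7 *Tet2/3* DKO libraries below all WT libraries. Its log2 fold change was -0.15 (SE 0.121, adjusted p = 0.302, edgeR), 0.19 (adjusted p = 0.105, edgeR) when libraries were scaled by their total alone and -0.39 (adjusted p = 0.0125, edgeR) under upper-quartile scaling, where it was called lower, so no direction is given for it. Its strand let-7a-5p was at 43821 ± 6858 CPM (SD, n = 6) across WT mice and 35697 ± 8055 CPM (SD, n = 7) across *Tet2/3* DKO mice, with a log2 fold change of -0.30 (adjusted p = 0.0826, edgeR). That value lay near the threshold and was called in 9 of 13 fits that left out 1 library, those without WT 1, 2, 3, 4 or 6 and without *Tet2/3* DKO 4, 5, 6 or 7, at -0.43 to -0.30. It was also called under upper-quartile scaling (-0.48, adjusted p = 0.00221, edgeR) and among sequences with a mean of at least 10 counts (-0.39, adjusted p = 0.0211, edgeR). Relative to let-7a-2 of the same library, let-7c-1 was lower in *Tet2/3* DKO by 2.35 on the log2 scale and let-7e was higher by 1.54 (both adjusted p = 0.00259, exact permutation test), without overlap in either case.

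The other members of the 100 locus were at or near the limit of detection as hairpins. The mir-100 hairpin had 4, 4, 4, 0, 1 and 0 counts in WT and 2, 0, 1, 0, 0, 7 and 5 counts in *Tet2/3* DKO. The mir-125b-1 hairpin had 4, 0, 3, 0, 0 and 6 counts in WT and 0, 0, 4, 0, 6, 1 and 6 counts in *Tet2/3* DKO. Neither was tested, and a difference between the genotypes was not detectable at this depth. The strand miR-100-3p had 1 count in all, in a *Tet2/3* DKO library.

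The strand miR-100-5p was called lower in *Tet2/3* DKO with all libraries and was not called when WT 5 and WT 6 were both left out. Its counts were 5, 10, 35, 15, 216 and 118 in WT and 15, 10, 6, 10, 36, 21 and 34 in *Tet2/3* DKO. WT 5 and WT 6 were at 110.3 and 75.0 CPM, the other 4 WT libraries were between 4.70 and 14.3 CPM, and the 7 *Tet2/3* DKO libraries were between 2.11 and 15.3 CPM, so that the other WT libraries overlapped with *Tet2/3* DKO. The log2 fold change of miR-100-5p was -2.74 (SE 0.813, adjusted p = 0.0116, edgeR) with all libraries, -2.04 without WT 5, and -0.71 (adjusted p = 0.298, edgeR) without WT 5 and WT 6. The log2 fold changes of miR-99a-5p and miR-125b-5p without these libraries were -2.67 (adjusted p = 0.000109, edgeR) and -2.16 (adjusted p = 0.00116, edgeR).

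Some miRNAs known from cells other than T cells were also lower in *Tet2/3* DKO. Red cell miRNAs (mir-451a, mir-144, mir-486a and mir-486b) had summed mature levels of 128 to 248 CPM in WT and 15.9 to 72.6 CPM in *Tet2/3* DKO, and 4 of 4 tested strands were lower. Mesenchymal stroma miRNAs (mir-143, mir-145a, mir-199a-1, mir-199a-2, mir-199b and mir-214) summed to 67.6 to 122.5 CPM in WT and 12.02 to 22.8 CPM in *Tet2/3* DKO, and 5 of 5 tested strands were lower. All markers of both lists had counts, and neither sum overlapped between the genotypes. Among all tested mature sequences, 27.4% were called lower and 14.5% lay below WT without overlap.
The hepatocyte miRNA mir-122 summed to 46.9 to 883 CPM in WT and 3.16 to 49.3 CPM in *Tet2/3* DKO, and its 1 tested strand was lower. WT 5 (883 CPM) and WT 6 (762 CPM), the libraries with the most miR-100-5p, were the highest, followed by WT 1 at 87.4 CPM. Within *Tet2/3* DKO the highest were *Tet2/3* DKO 5 and 6 at 49.3 and 43.6 CPM. In that genotype miR-100-5p was highest in *Tet2/3* DKO 7, at 15.3 CPM, where the mir-122 sum was 21.5 CPM. *Tet2/3* DKO 5 and 6 followed for miR-100-5p, at 9.20 and 5.08 CPM. The myeloid miRNA mir-223 ranged from 20.1 to 310.4 CPM on hairpins in WT, with WT 3 the highest, and from 0 to 19.2 CPM in *Tet2/3* DKO. Its strands summed to 2.31 to 92.5 CPM in WT and 0.633 to 6.57 CPM in *Tet2/3* DKO, with overlap. The mir-223 hairpin and its 1 tested strand were both called lower. WT 3 also had the most mir-99a hairpin, but miR-99a-5p was highest in WT 5 (73.5 CPM, against 59.8 CPM in WT 3). Within *Tet2/3* DKO, mir-99a was highest in *Tet2/3* DKO 7 (10.6 CPM), where mir-223 was at 0 CPM on hairpins and its strands summed to 3.59 CPM. The cells had been sorted as live TCRβ+ tetramer+ cells, a gate set on the T cell receptor, and the study checked the purity of the sorted samples. The part of any of these cells in the falls of miR-99a-5p, mir-99a, miR-125b-5p and miR-100-5p was not tested. In bulk libraries, fewer cells of a type and less RNA per cell cannot be told apart. The paper also describes the iNKT cells of *Tet2/3* DKO mice as expanded and skewed toward the iNKT subset that expresses RORγt. Subsets were not separated in these libraries, and the part of subset make-up in the differences of any member was not tested.

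Markers of epithelium and endothelium moved in different ways on mature sequences and were not called on hairpins. The summed mature level of the epithelial list (mir-200a, mir-200b, mir-200c, mir-141, mir-429, mir-203 and mir-205) was 1279 to 1701 CPM in WT and 818 to 1094 CPM in *Tet2/3* DKO, without overlap and with 4 of 7 tested strands lower. The endothelial miRNA mir-126a was at 127 to 237 CPM in WT and 196 to 335 CPM in *Tet2/3* DKO, with 1 of 2 tested strands higher and overlap between the genotypes. On hairpins the epithelial sum was 601 to 810 CPM in WT and 589 to 704 CPM in *Tet2/3* DKO, with 0 of 5 tested hairpins lower or higher. The mir-126a hairpin was at 102 to 235 CPM in WT, with WT 3 the highest, and 95.6 to 145 CPM in *Tet2/3* DKO. Both overlapped between the genotypes. Without WT 5 and WT 6, the log2 fold changes were 1.65 for let-7e-5p, 1.29 for miR-99b-5p, 0.70 for miR-125a-5p and -2.30 for let-7c-5p, each still called (edgeR).

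**Figure D4:**
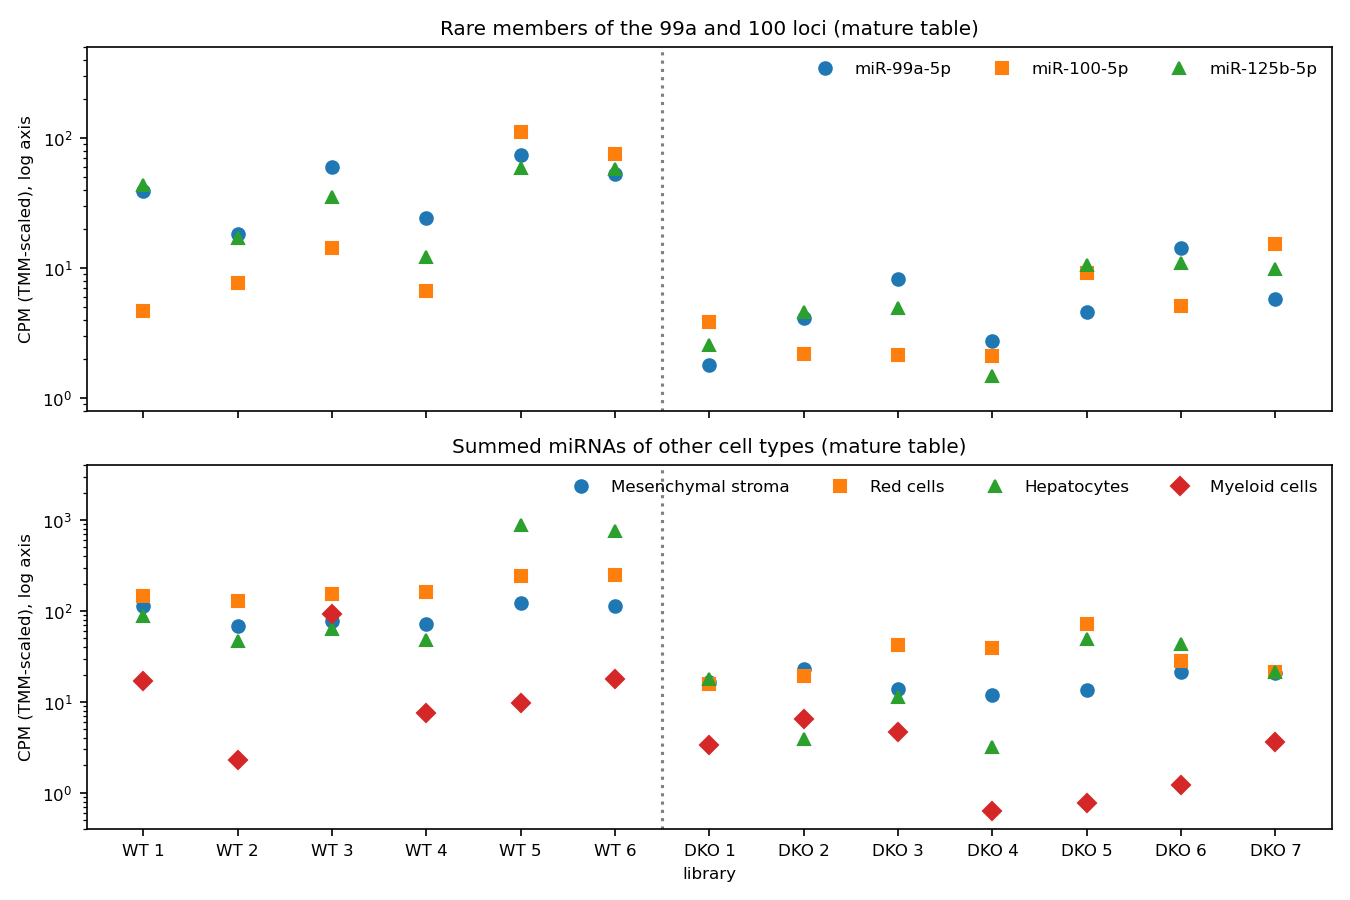
Level in CPM (y axis, log scale) in each library (x axis, 6 WT and 7 *Tet2/3* DKO) of miR-99a-5p, miR-100-5p and miR-125b-5p (top) and of the summed marker miRNAs of stroma, red cells, hepatocytes and myeloid cells (bottom). The epithelial and endothelial markers are not shown. WT 5 and WT 6 are the highest libraries for miR-100-5p, at 110.3 and 75.0 CPM, and for the hepatocyte sum, at 883 and 762 CPM, and all 6 WT libraries lie above the *Tet2/3* DKO libraries for the red cell and stroma sums.

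Members at the same place in different loci were compared directly within libraries. The log2 ratio of miR-99b-5p to miR-99a-5p was 5.48 ± 1.00 (SD, n = 6) across WT mice and 10.01 ± 1.12 (SD, n = 7) across *Tet2/3* DKO mice. That is a difference of 4.53, or 23.1-fold (adjusted p = 0.00259, exact permutation test), without overlap. Likewise, the log2 ratio of let-7e-5p to let-7c-5p was -3.01 ± 0.574 (SD, n = 6) across WT mice and 1.18 ± 0.216 (SD, n = 7) across *Tet2/3* DKO mice, a difference of 4.19 (adjusted p = 0.00259, exact permutation test), so that let-7c-5p was the more frequent read in every WT library and let-7e-5p in every *Tet2/3* DKO library. For the miR-125 pair, the log2 ratio of miR-125a-5p to miR-125b-5p was 7.10 ± 0.893 (SD, n = 6) across WT mice and 10.5 ± 1.07 (SD, n = 7) across *Tet2/3* DKO mice, a difference of 3.41 (adjusted p = 0.00259, exact permutation test) without overlap.

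The same order was seen on hairpins and less clearly with the 100 locus. The log2 ratio of mir-99a to mir-99b differed by -4.68 and that of let-7c-1 to let-7e by -3.90 (both adjusted p = 0.00259, exact permutation test), without overlap. The log2 ratio of miR-99b-5p to miR-100-5p differed by 3.54 (adjusted p = 0.00699, exact permutation test) with all libraries and by 2.33 (adjusted p = 0.0364, exact permutation test) without WT 5 and WT 6, with overlap. Between miR-100-5p and miR-99a-5p the log2 ratio differed by 0.99 (adjusted p = 0.27, exact permutation test), which was not called. In all, 12 of the 20 tested pairs were called and 9 did not overlap between the genotypes.

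Summed by seed, the loci contributed very unequally. Of all reads with the miR-99/100 seed, miR-99b-5p made up 95.4% ± 3.71 (SD, n = 6) across WT mice and 99.8% ± 0.117 (SD, n = 7) across *Tet2/3* DKO mice, with a summed level of 2015 ± 879 CPM (SD, n = 6) and 5300 ± 1141 CPM (SD, n = 7). The pool was therefore carried by the 99b locus in both genotypes, and its level followed miR-99b-5p. Of all reads with the miR-125 seed, miR-125a-5p made up 92.4% ± 2.00 (SD, n = 6) across WT mice and 90.5% ± 1.84 (SD, n = 7) across *Tet2/3* DKO mice, and miR-125b-5p 0.769% and 0.0732%. The rest was miR-351-5p, a miRNA with the same seed from another gene, with 6.82% and 9.38%. Of all reads with the let-7 seed, over 11 names, let-7e-5p made up 0.859% ± 0.368 (SD, n = 6) across WT mice and 3.67% ± 0.529 (SD, n = 7) across *Tet2/3* DKO mice, while the share of let-7c-5p was 6.57% and 1.61%. The rise of let-7e-5p thus added to a small part of the let-7 pool, whose summed level was 252594 ± 32147 CPM (SD, n = 6) across WT mice and 193665 ± 32374 CPM (SD, n = 7) across *Tet2/3* DKO mice.

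Relatives outside the loci were taken from a list of hairpins that share a seed or close sequence, with their mature arms. Of 14 such hairpins 11 were tested, and 2 were higher, 5 lower and 4 not called. Of 23 mature relatives 17 were tested, and 3 were higher, 6 lower and 8 not called. With 59.7% of all tested hairpins and 55.6% of all tested mature sequences called, the numbers called in either direction are near the background. By direction, 32.6% of all tested hairpins were higher and 27.1% lower, and 28.2% and 27.4% of all tested mature sequences. Among the mature relatives that were not called, let-7a-1-3p and let-7c-2-3p had identical values and are counted separately. The miR-125 relative mir-351 rose on hairpins, with a log2 fold change of 1.20 (adjusted p = 2.43e-05, edgeR), and miR-351-5p by 1.34 (adjusted p = 9.07e-08, edgeR), without overlap in either table. The miR-10 miRNAs are close in sequence to miR-99/100 and have a similar seed.
miR-351-5p: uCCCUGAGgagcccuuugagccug
miR-10a-5p: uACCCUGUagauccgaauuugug
miR-10b-5p: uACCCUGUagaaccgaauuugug
The strand miR-10b-5p fell, from 27.7 ± 14.9 CPM (SD, n = 6) to 4.48 ± 1.87 CPM (SD, n = 7), with a log2 fold change of -2.59 (adjusted p = 4.72e-06, edgeR), and miR-10a-5p had a log2 fold change of -2.19 (adjusted p = 0.000807, edgeR). The hairpins mir-10a and mir-10b were not tested, and the let-7a-1 hairpin was not called (log2 fold change -0.15, adjusted p = 0.302, edgeR), with the flip of sign given for let-7a-2.

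The miRNAs whose pattern over the 13 libraries was most like that of miR-99a-5p, miR-100-5p and miR-125a-5p, the most abundant mature member of each locus that no other locus encodes, were found by the mean absolute difference of log2 CPM after centring, over 392 tested mature sequences outside the members, as a description. Nearest to miR-99a-5p were miR-130a-3p (0.486), miR-10b-5p (0.566) and the red cell miRNA miR-451a (0.570), where the median of all was 1.46. Nearest to miR-100-5p were the hepatocyte miRNA miR-122-5p (0.797), miR-122b-3p (0.810) and miR-1955-5p (0.868), where the median of all was 1.33. Nearest to miR-125a-5p were miR-466i-3p (0.267) and miR-466b-3p and miR-466c-3p (both 0.289, with the same counts), where the median of all was 0.604. Of these, miR-451a and miR-122-5p are on the lists of other cell types.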

How the data were processed

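Small RNA-seq libraries of sorted thymic iNKT cells from 6 WT and 7 *Tet2/3* DKO mice were analysed. The authors prepared libraries with a NETFLEX small RNA kit, processed reads with nf-core/smrnaseq under default parameters and deposited raw counts per hairpin and per mature sequence, one column per mouse, with 0 columns unused. Aligner, miRNA database release and the treatment of reads that match several sequences are not given in the sources used here, and reads could move between near-identical sequences. The labels name mm10, the same assembly as GRCm38. The *Tet2* and *Tet3* deletions could not be checked in small RNA counts.

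From the deposited counts, sequences were kept by filterByExpr (minimum count 10, minimum total count 15), scaled by TMM and tested by edgeR 4.0.16 (robust quasi-likelihood, genotype only, Benjamini-Hochberg within each table, adjusted p under 0.05, and a second rule with an absolute log2 fold change above 2). Script checks on simulated data preceded the tests. Ratios used two-sided exact permutation tests (scipy 1.17.1). Log2 CPM for likeness used a prior count of 2. Sequences came from RefSeq and positions from GENCODE M21. R 4.3.3, Python 3.11.15, pandas 2.3.3 and matplotlib 3.10.9 were used.

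Alternatives were RLE, library size and upper-quartile scaling, no filter, a mean of at least 10 counts, DESeq2 1.42.0, limma-voom (limma 3.58.1), replicate number as a block, 2 counts added in ratios, and leaving out each library. Leaving out WT 5 and WT 6, or WT 1 and *Tet2/3* DKO 7, together was chosen after seeing the data. Members, pairs, relatives and marker lists were chosen with earlier results of these data known. The text names all members, their let-7 strands and a list of relatives with values for mir-351, mir-10a, mir-10b, let-7b, let-7c-2 and let-7a-1. It also names the 3 nearest miRNAs to the most abundant mature member that comes from 1 locus alone, in each locus (miR-99a-5p, miR-125a-5p and miR-100-5p, so that let-7c-5p and let-7a-5p are left out). Reads carried no molecular identifiers, so floors cover counting error only, and sums and shares over a locus or seed carry no test.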

Additional observations from a re-analysis of the deposited data

Results flagged for a closer look

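A library far from the others of its genotype was looked for in 82 groups of values, where chance gives about 1 in 20, that is 4.1, and 6 were found. In 4 of these the library was WT 1, the library with the fewest counts. It had the highest miR-125a-3p level, 7.78 log2 CPM against 6.91 in the next WT library, and the highest log2 ratio of miR-99b-5p to let-7e-5p, 0.16 against -0.15 in the next. Its share of counts on tested sequences was the lowest of the WT libraries, 99.7% against 99.8% in the next on hairpins and 99.92% against 99.94% on mature sequences. In *Tet2/3* DKO 1 the log2 ratio of miR-99b-5p to miR-125a-5p was -0.28, above -0.56 in the next library. In *Tet2/3* DKO 7, the shallowest of its genotype, the log2 ratio of let-7e-5p to miR-125a-5p was -0.67, below -0.24 in the next library. Leaving out WT 1 and *Tet2/3* DKO 7 together, the differences of these 2 ratios were 0.79 and 1.05 (both adjusted p = 0.00787, exact permutation test). The ratio of miR-99b-5p to let-7e-5p was then called, at -0.26 (adjusted p = 0.02, exact permutation test).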

How the results depend on the processing

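All 5 called member hairpins and all 9 called mature members were called in the same direction under all 4 scalings and in each fit that left out 1 library. Across all alternatives, 373 of 391 values of the 17 single sequences kept their direction and side of the threshold, and 328 of 340 values of single ratios did. Of the called members, miR-100-5p alone was lost, without a filter (-2.64, adjusted p = 0.0515, edgeR) and without WT 5 and WT 6 (-0.71). The let-7a-2 log2 fold change turned positive with library size only (0.19), with no filter (0.034) and without WT 5 and WT 6 (0.044). Among all hairpins, 209 were called, 114 higher and 95 lower. The numbers higher and lower were 151 and 56 with library size only, 93 and 137 with upper-quartile scaling, 132 and 156 with no filter and 109 and 164 with DESeq2, and for mature sequences, 113 and 110 as reported, they were 142 and 77 with library size only and 89 and 132 with upper-quartile scaling. The cause of these shifts was not tested. Leaving out 1 library gave 191 to 211 hairpins called (106 to 116 higher, 78 to 100 lower), 209 to 234 mature sequences and 12 to 14 ratios. With library size only, the median log2 fold change of all tested sequences moved by 0.34 on hairpins and 0.25 on mature sequences, with upper-quartile scaling by -0.24 and -0.16, and with RLE by -0.11 on hairpins. Replicate numbers name no litter, batch or day in the labels, and they were not taken to pair the mice: same-numbered libraries correlated between -0.044 and 0.367 on hairpins and between 0.0062 and 0.342 on mature sequences, and for 3 and 2 of 6 numbers best with their own, numbers 5 and 6 in both tables. With the replicate block, 217 hairpins, 225 mature sequences and 13 ratios were called. That fit leaves out *Tet2/3* DKO 7, whose number no WT library has. Calls were gained for let-7a-5p (-0.31, adjusted p = 0.0153, edgeR), the hairpin ratio of let-7e to mir-125a (0.20) and the ratio of miR-99b-5p to let-7e-5p (-0.33). Both ratios had adjusted p = 0.0481 (exact permutation test), the lowest value in that fit, which all 13 called ratios shared. The miR-99b arm ratio was lost (1.29, adjusted p = 0.0781, exact permutation test). Without *Tet2/3* DKO 7 and without a block, let-7a-5p (-0.30, adjusted p = 0.0411, edgeR) and the ratio of miR-99b-5p to let-7e-5p were also called. The hairpin ratio of let-7e to mir-125a was not. The block changed no other call of a member or ratio, and miR-100-5p stood at -2.63 (adjusted p = 3.82e-05, edgeR). Depth limits the mir-100, mir-125b-1 and mir-125b-2 hairpins, whose counts were 7 or fewer per library.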
